A study of Mus musculus with 2 samples.

Results

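The highest tag counts among Ronin peaks of newborn mouse retina lay in 388 narrow peaks on 19 autosomes and 7 on the X chromosome. These peaks are together 1.06% of the 37360 peaks that the study listed. They were chosen by their recovered tag counts: the list runs from the highest peak down, and the rows at its head, as far as 14 or more tags reach, were taken, a tag being a mapped read. They are called highest-ranked peaks here. The 36965 later rows hold 13 tags or fewer and serve here as the comparison. The peaks come from chromatin immunoprecipitation and sequencing (ChIP-seq) of wild-type retina of the CD1 strain background at postnatal day 0, in which more than 10 retinae were pooled for each sample. The series holds 1 Ronin ChIP sample, made with the custom antibody G4275, and 1 control sample, titled input but labelled with normal rabbit IgG as its antibody. Both share strain background, genotype, age and tissue. Pooling hides differences between animals, and whole retina mixes all its cell types, so neither can be read from these peaks. With no replicates, every interval and p-value below covers counting within 1 library only.

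Ronin, the product of the Thap11 gene, belongs to the THAP family, whose members bind DNA through a zinc finger of their own type. It is known to act together with the co-regulator HCF-1 and to sit mostly at gene promoters, many of them promoters of genes for metabolism and protein synthesis. It was first described as a factor that embryonic stem cells need, and in the retina it has been studied as a regulator of genes that progenitor cells use for mitochondrial function. In ChIP-seq, a site that the factor occupies in many cells gathers more fragments than its surroundings, which gives a higher peak. A high peak can also arise where a sequence is enriched whatever the antibody. Per the file headers, the caller asked each listed peak for a 4-fold excess over the control and a Poisson p-value limit of 0.0001. All highest-ranked peaks passed that filter. Control values at these peaks were not analysed here. Enrichment whatever the antibody was therefore not tested beyond that filter for any of them, the first rows of the list included. Gene positions and sequence in mouse build mm9, the build of the peaks, were not used here, so the peaks are named by position, no gene is assigned to any of them and no sequence is shown.

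The highest-ranked peaks ranged from 14 tags to at least 46, with a median of 18 and quartiles of 15 and 24, while the later rows had a median of 7. A peak of 14 tags holds 42.4 times the 0.330 tags that the file header gives as the genome-wide expectation for a peak, in a library of 3643141 tags. There were 151 peaks of 14 to 16 tags, 71 of 17 to 19, 126 of 20 to 29 and 47 of 30 or more. Just inside the limit lay 65 peaks of 14 tags, and just outside it lay 132 of 13 tags, so the limit cuts a continuous slope. These values chose the peaks and are given as a description. Together they hold 8212 recovered tags, 3.08% of the 266288 recovered in the whole list. The highest counts are lower bounds, so this sum is a lower bound too and the share is approximate.

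**Figure D1:**
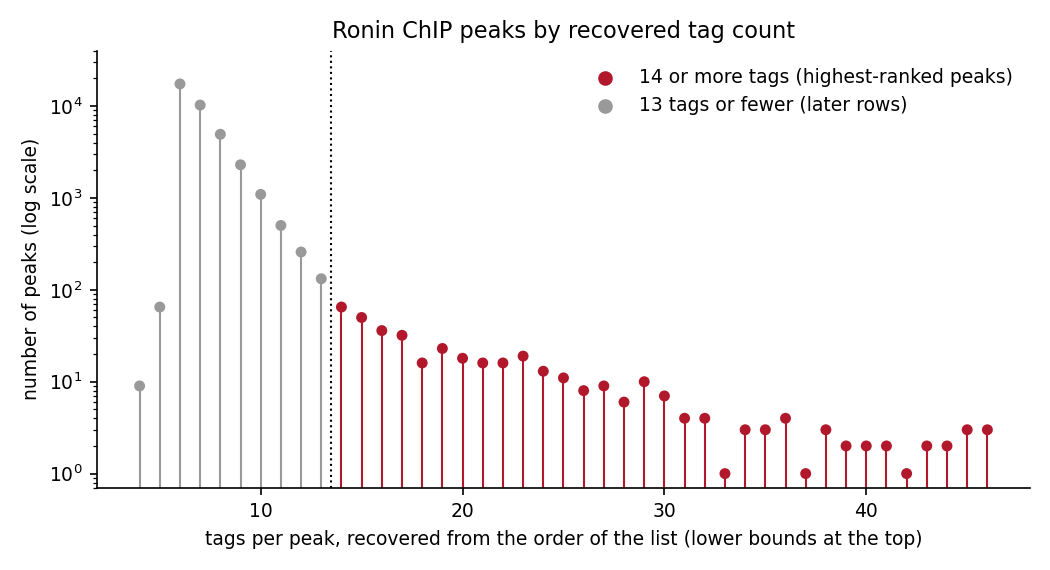
Number of peaks (y axis, log scale) at each recovered tag count (x axis), with the highest-ranked peaks in red and the later rows in grey. The counts are highest at 6 tags (17419 peaks), come to 132 peaks at 13 tags and 65 at 14, and the values reach at least 46 tags.

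Tag counts near the top are less certain than those near the limit. Each group of equal tags from 14 to 23 holds 16 to 65 peaks, which marks its end clearly. Groups of 24 to 32 tags hold 4 to 13 peaks, and recovery was checked on simulated data up to 20 tags only. The 32 peaks of 33 or more tags fall in 14 groups of 1 to 4 peaks. Skipped counts leave no trace in the order, so values there are lower bounds. The header sum of tags in peaks exceeds the recovered sum by 1920.

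The first 20 peaks of the list lay on 11 chromosomes, 4 of them on chromosome 2 and 3 on chromosome 9. Of these, 12 had no other highest-ranked peak within 1 Mb, as did 208 (52.7%) of the whole class. The first 2 rows, chr2:98505179-98505369 and chr2:98506561-98506751, stood 1382 bp apart with at least 46 tags each, and the nearest later row lay 23972 bp from the first. The peak at chrX:139917497-139917687, also at least 46 tags, had its nearest highest-ranked neighbour 2426213 bp away. The peak at chr14:65568659-65568849, of at least 44 tags, was more isolated, with 9277750 bp to the next of its class. A later row within 5000 bp was found for 1 of the 20, and the median distance to the nearest later row was 25.3 kb, against 26.1 kb over the whole class.

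The peaks ranked 4 to 6 had at least 45 tags each and lay at chr2:77784365-77784555, chr9:24346439-24346629 and chr18:40467700-40467890. Those ranked 7, 9 and 10 lay at chr2:181652523-181652713 (at least 44 tags), chr8:124473920-124474110 and chr15:102552548-102552738 (at least 43 tags each). None of these 6 had another highest-ranked peak within 1 Mb, other than chr2:181652523-181652713, whose neighbour 760 bp away had 18 tags.

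The next 10 ranks lay on 7 chromosomes. The peak at chr11:59859961-59860151 had at least 42 tags, and those at chr3:87689521-87689711 and chr16:44746447-44746637 had at least 41 each. At least 40 tags were recovered at chr6:124779007-124779197 and chr16:55934897-55935087, and at least 39 at chr8:73988557-73988747 and chr9:107436112-107436302. The last 3 of the 20, of at least 38 tags each, were chr9:77956832-77957022, chr11:115948380-115948570 and chr15:81560498-81560688. Of these 10, chr3:87689521-87689711 and chr11:115948380-115948570 lay in dense loci, with 7 and 4 highest-ranked peaks. Chromosome 7, which held the most highest-ranked peaks, had none among the first 20, and its best rank was 21.

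The peak names give a second view of height. HOMER, the peak caller, named each candidate by its chromosome and a number that runs roughly from high to low, and candidates that a filter removed leave a gap. Of the highest-ranked peaks, 237 were numbered 1 to 20 on their chromosome, 153 were numbered 21 to 100 and 5 above 100. Between neighbouring numbers on a chromosome, the recovered tags fell or stayed equal in 284 of 375 steps (75.7%). Equal counts are included, and many peaks share the same low counts. Numbers without any order would thus also give a sizeable share, which was not worked out. The highest number was 210, for a peak of 14 tags on chromosome 5, so a candidate named low could still end with a high tag count.

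The list of highest peaks is what the filters left, and they left very different parts of each chromosome's top. On chromosome 7 the candidates numbered 1 to 20 were all highest-ranked peaks, as were all numbers up to 24. On chromosome 8, 18 of the first 20 were highest-ranked peaks and 2 were missing. On chromosome 9, 14 of the first 20 were missing, and on chromosomes 11 and 17, 11 each. Chromosome 17 began with number 8, and all of its first 5 candidates were missing. Over the 20 chromosomes, 121 of the first 400 candidate numbers (30.3%) were missing, and number 1 was missing on 11 chromosomes. Which filter removed a candidate is not recorded in the list. Per the file headers, 37360 of 47133 candidates were kept over the whole genome, so loss was not confined to the top. The filter against the control removed 9531 candidates, the one against the surrounding 10000 bp 241 and the one on repeated positions 1. A count of highest peaks on chromosomes 9, 11 or 17 is therefore a count after a larger loss at the top than on chromosome 7 or 8, and its part in the differences between chromosomes was not tested.

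**Figure D2:**
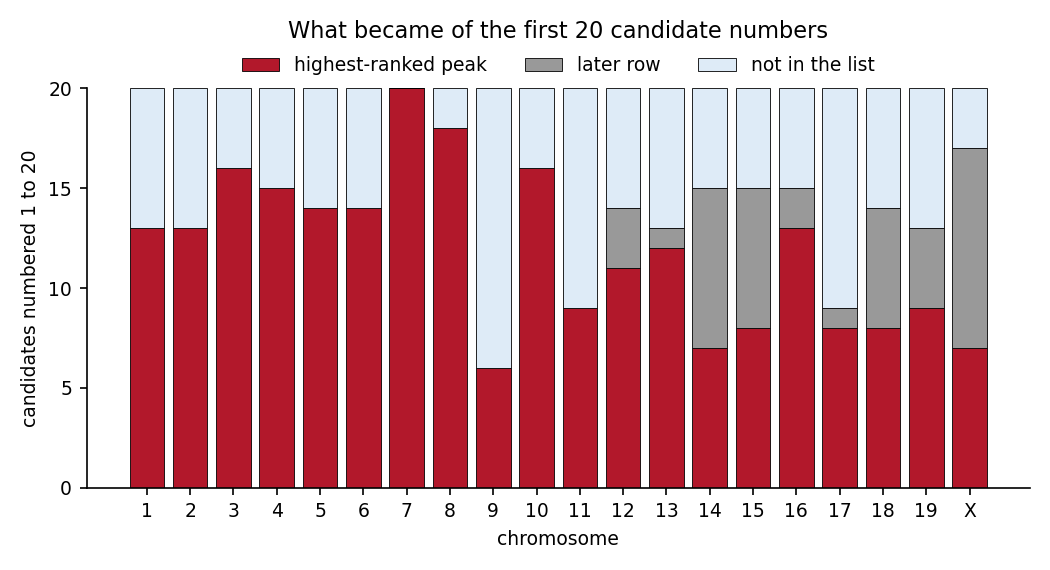
For each chromosome (x axis), how many of the candidates numbered 1 to 20 (y axis) are highest-ranked peaks (red), later rows (grey) or not in the list (pale blue). Chromosome 7 has 20 highest-ranked peaks and chromosome 9 has 6, with 14 not in the list.

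The comparison between chromosomes asks where the highest peaks made up an unusual share of the peaks found. On chromosome 7, 52 of 1958 peaks were highest-ranked, or 2.66% (exact Clopper-Pearson 95% interval 1.99% to 3.47%), against 343 of 35402 (0.969%) on the other chromosomes. On chromosome 14 the share was 7 of 1826, or 0.383% (0.154% to 0.788%), against 1.09% elsewhere. Fisher's exact test, two-sided, with Benjamini-Hochberg adjustment over the 20 chromosomes, gave adjusted p = 3.31e-08 for chromosome 7 (odds ratio 2.79) and adjusted p = 0.0205 for chromosome 14 (odds ratio 0.349). These 2 chromosomes are 10.0% of the 20 tested. The other 18 ranged from 0.521% on chromosome 15 to 1.60% on chromosome 11 and did not pass, and 4 of the 20 had an unadjusted p under 0.05.

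Both calls were lost when a locus of highest-ranked peaks joined within 1 Mb was counted as 1. Later rows were left unjoined, so this setting by itself lowers the share where highest-ranked peaks lie close together. Chromosome 7 then held 17 (0.884% of its peaks, odds ratio 1.22, adjusted Fisher's exact p = 1) and chromosome 14 held 6 (0.329%, odds ratio 0.434, adjusted Fisher's exact p = 0.681). The call on chromosome 14 was also lost against peaks of 10 to 13 tags alone (odds ratio 0.460, adjusted Fisher's exact p = 0.325) and with a limit of 20 tags (odds ratio 0.227, adjusted Fisher's exact p = 0.194). In these 3 settings the share on chromosome 14 was still below that of the other chromosomes. Chromosome 7 kept its call with highest-ranked peaks within 50 kb counted once (odds ratio 2.51, adjusted Fisher's exact p = 4.90e-06). It also kept its call against peaks of 10 to 13 tags alone (odds ratio 2.56). With limits of 12, 16 and 20 tags it did so too (odds ratios 1.89, 3.24 and 3.38).

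**Figure D3:**
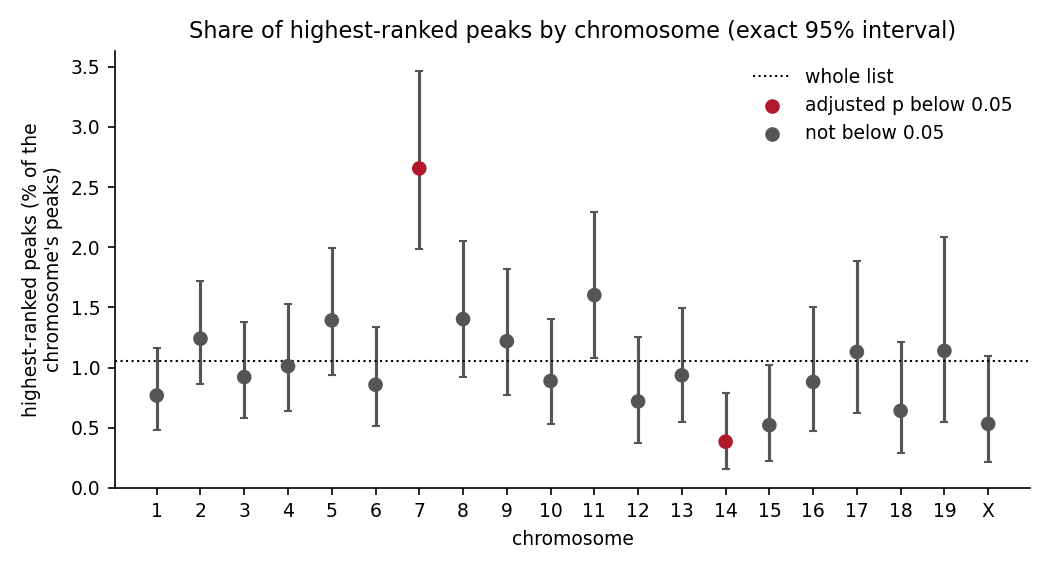
Highest-ranked peaks as a percentage of each chromosome's peaks (y axis) for the 20 chromosomes (x axis). Points are shares, bars are exact 95% intervals, the dotted line is the whole list (1.06%), and red marks chromosomes 7 (2.66%) and 14 (0.383%), with adjusted p under 0.05.

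Per gene, chromosome 7 stood less far apart. A RefSeq table of assembly GRCm38, used only for the number of protein-coding genes on each chromosome, gave 2.56 highest-ranked peaks per 100 genes on chromosome 7, against 1.75 on all other chromosomes together. Chromosome 8 reached 2.49, chromosome 3 reached 2.34 and chromosome 5 reached 2.29. The lowest were the X chromosome at 0.725, chromosome 14 at 0.823 and chromosome 15 at 1.03. Later rows ran the other way on chromosome 7, with 93.9 per 100 genes, the lowest of the 20 chromosomes, against 273 on chromosome 18. No test was made of these ratios.

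The median height of the highest-ranked peaks lay between 15 tags on chromosome 18 and 22 on chromosome 16, with 20.5 on chromosome 7. The share with 20 or more tags ran from 2 of 9 on chromosome 18 (22.2%) to 8 of 13 on chromosome 16 (61.5%), and on chromosome 7 it was 27 of 52 (51.9%). These differences were not tested. Of the 47 peaks of 30 or more tags, chromosome 7 held 3, or 6.38% (exact 95% interval 1.34% to 17.5%). Of the 126 peaks of 20 to 29 tags it held 24, or 19% (12.6% to 27.0%), and of the 151 of 14 to 16 tags it held 17, or 11.3% (6.70% to 17.4%). Of the 71 peaks of 17 to 19 tags it held 8, or 11.3% (4.99% to 21%). The intervals of all these shares overlap.

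Highest-ranked peaks lay closer to each other than lower peaks lay to them. The median distance from a highest-ranked peak to the next of its class was 1130 kb, with quartiles of 230 kb and 3275 kb. For peaks of 10 to 13 tags the median distance to a highest-ranked peak was 2758 kb, for 7 to 9 tags 3096 kb and for 6 tags or fewer 3115 kb. Within 50 kb of another highest-ranked peak lay 37 highest-ranked peaks (9.37%, exact 95% interval 6.68% to 12.7%). Of the 1986 peaks of 10 to 13 tags, 2.47% (1.83% to 3.25%) lay that close to one, and of the 17486 peaks of 7 to 9 tags 1.46% (1.29% to 1.65%) did. The values for 7 to 9 tags and for 6 tags or fewer (1.41%, 1.24% to 1.59%) overlap. Peaks that share a neighbourhood are counted more than once in these shares, so no test was made.

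**Figure D4:**
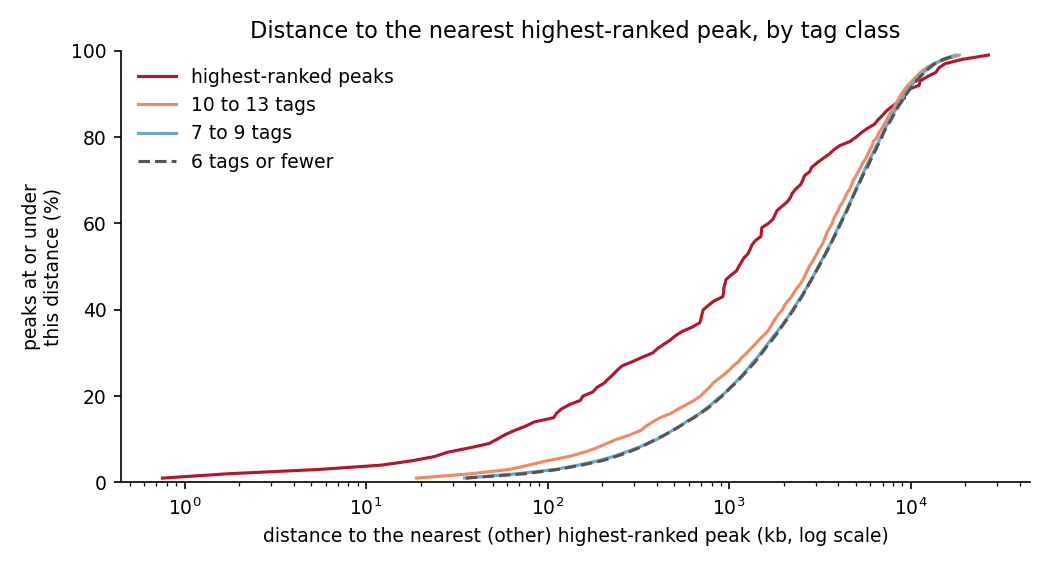
Percentage of peaks (y axis) whose nearest other highest-ranked peak lies at or under a given distance in kb (x axis, log scale), for 4 tag classes. The curve of the highest-ranked peaks lies to the left over most of its length (median 1130 kb), that of 10 to 13 tags is next (2758 kb), and the curves of 7 to 9 tags and of 6 tags or fewer run together.

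Spacing differed widely along the genome. The median gap between neighbouring highest-ranked peaks on a chromosome was 2.52 Mb, with quartiles of 0.688 and 9.28 Mb. On chromosome 7 the median gap was 0.410 Mb, and 45 of its 52 had another within 1 Mb. On chromosome 18 and on the X chromosome none did, and the median gaps were 6.71 and 26.5 Mb. The most isolated was chrX:7274051-7274241, of 16 tags, 39.4 Mb from the next. Among tag classes, another highest-ranked peak lay within 1 Mb of 75 of 126 peaks of 20 to 29 tags (59.5%, exact 95% interval 50.4% to 68.2%), and of 20 of 47 peaks of 30 or more tags (42.6%, 28.3% to 57.8%). For 17 to 19 tags it was 27 of 71 (38.0%, 26.8% to 50.3%), an interval that ends just under that of 20 to 29 tags, and for 14 to 16 tags 65 of 151 (43.0%, 35.0% to 51.3%). No test was made between the tag classes.

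Close pairs of highest-ranked peaks were few. Within 5000 bp there were 6 pairs, 3 of them within 1000 bp. The closest was chr7:26023006-26023196 (21 tags) and chr7:26023487-26023677 (24 tags), 481 bp apart and thus just beyond the 382 bp that the caller kept between peaks. At the high end of the same chromosome, chr7:134888883-134889073 (18 tags) and chr7:134889577-134889767 (16 tags) lay 694 bp apart. A strong peak with a weaker companion was seen at chr2:181652523-181652713 (at least 44 tags), with chr2:181653283-181653473 (18 tags) 760 bp away.

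The other 3 pairs lay farther apart. The first 2 rows of the list were 1382 bp apart. On chromosome 9, chr9:65972532-65972722 and chr9:65974301-65974491 had 19 tags each at 1769 bp, and on chromosome 7, chr7:30875569-30875759 (29 tags) and chr7:30880012-30880202 (22 tags) lay 4443 bp apart. Within 50 kb there were 20 pairs on 9 chromosomes, 7 of them on chromosome 7. In 18 of the 20 no other peak lay between the pair. In 12 the recovered tags differed by 5 or fewer, among them the first 2 rows, whose counts are lower bounds. The largest difference was at least 26 tags, as the higher count of that pair is a lower bound. Whether a pair is 2 sites or 1 broad stretch cut into windows of fixed width was not tested.

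Joined within 1 Mb, the highest-ranked peaks formed 273 loci. Of these, 208 held a single peak, 39 held 2, 15 held 3 and 11 held 4 or more. The 11 large loci held 64 highest-ranked peaks (16.2%) in 13.7 Mb on 7 chromosomes, and 4 of them, with 29 peaks, lay on chromosome 7. The median was highest in large loci, at 21 tags, against 19 in loci of 2 or 3 and 17.5 for single peaks. Yet only 3 of the 47 peaks of 30 or more tags lay in a large locus. Loci were formed from the highest-ranked peaks themselves, so their density is a description.

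The largest locus, chr7:49948220-52956436, held 11 highest-ranked peaks of 15 to 26 tags among 49 peaks of any height over 3008 kb. Its densest part began with chr7:51629256-51629446 (23 tags), chr7:51639871-51640061 (24 tags) and chr7:51723214-51723404 (24 tags). It went on with chr7:51842306-51842496 (15 tags), chr7:52252634-52252824 (21 tags) and chr7:52317925-52318115 (17 tags). The first 3, of 23 or 24 tags, lay closer together than the other 3.

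The locus chr7:24866742-26023677 held 7 highest-ranked peaks among 23 peaks. In it, 5 peaks lay within 189 kb: chr7:24866742-24866932 (17 tags), chr7:24919042-24919232 (17 tags), chr7:24959940-24960130 (18 tags), chr7:24993128-24993318 (15 tags) and chr7:25055246-25055436 (26 tags). The first 4 differed by at most 3 tags and the last stood above them. The pair 481 bp apart closes this locus.

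The shortest of the 11 loci, chr7:30553439-30880202, held 4 highest-ranked peaks among only 9 peaks in 327 kb: chr7:30553439-30553629 (22 tags), chr7:30603865-30604055 (24 tags) and the pair of 29 and 22 tags given above. All 4 were above the median of the class. The locus chr7:133540548-135039381 held 7 among 26 peaks, and its densest 150 kb held the pair 694 bp apart with chr7:134985980-134986170 (23 tags) and chr7:135039191-135039381 (14 tags).

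On chromosome 8, chr8:108232117-108939233 held 6 highest-ranked peaks among 19. They were chr8:108232117-108232307 (22 tags), chr8:108351152-108351342 (15 tags), chr8:108378628-108378818 (21 tags), chr8:108384316-108384506 (25 tags), chr8:108861982-108862172 (30 tags) and chr8:108939043-108939233 (18 tags). A second locus on that chromosome, chr8:113443513-114516341, held 4 among 27 peaks.

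On chromosome 3, chr3:87689521-89070557 held 7 highest-ranked peaks among 33. It opens with the peak of rank 12 (at least 41 tags) and goes on, 646 kb later, with chr3:88335652-88335842 (15 tags), chr3:88356849-88357039 (25 tags) and chr3:88383409-88383599 (20 tags). Then follow chr3:88905764-88905954 (19 tags), chr3:88981107-88981297 (14 tags) and chr3:89070367-89070557 (24 tags). It is 1 of only 2 large loci with a peak among the first 20.

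The other such locus was chr11:115891371-116533002, with 4 highest-ranked peaks among 9. Beside the peak of rank 19 (at least 38 tags) it held chr11:115891371-115891561 (20 tags), chr11:116351811-116352001 (14 tags) and chr11:116532812-116533002 (21 tags). On chromosome 13, chr13:67209503-67825325 held 5 highest-ranked peaks among 16. They were chr13:67209503-67209693 (17 tags), chr13:67229032-67229222 (15 tags), chr13:67601409-67601599 (15 tags), chr13:67784468-67784658 (14 tags) and chr13:67825135-67825325 (21 tags). The remaining large loci were chr5:136410717-138629247, with 5 among 40 peaks, and chr10:126959407-128064014, with 4 among 16.

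**Figure D5:**
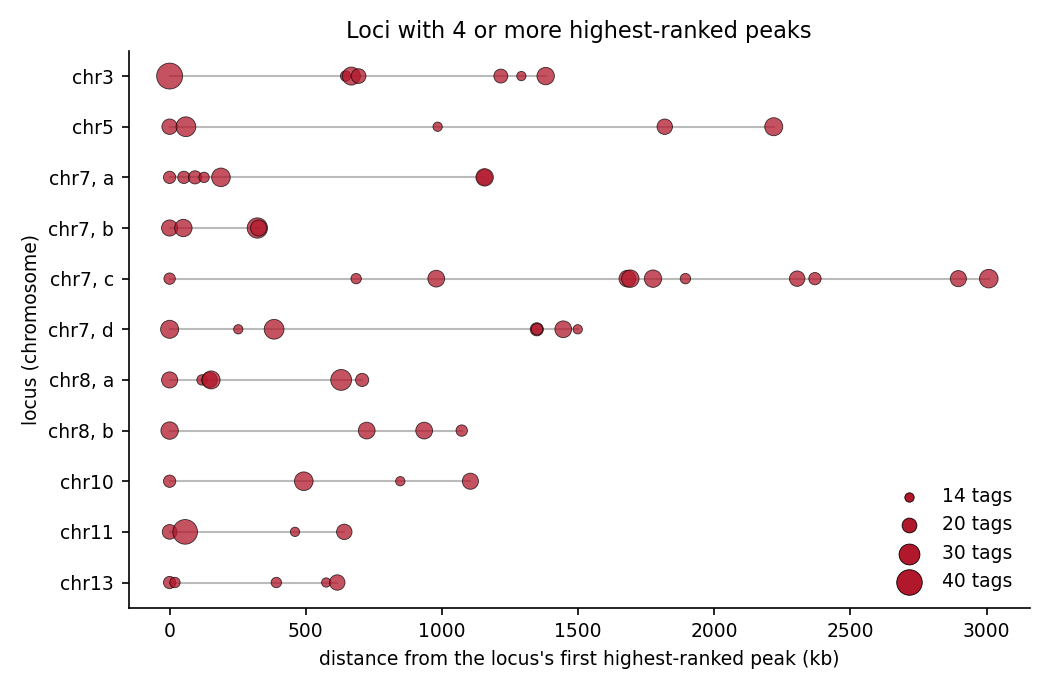
The 11 loci that hold 4 or more highest-ranked peaks within 1 Mb steps (y axis, by chromosome, letters in order along it), with each peak placed by its distance in kb from the locus's first (x axis) and sized by its tags. The largest has 11 peaks of 15 to 26 tags, and the locus on chromosome 3 opens with a peak of at least 41 tags.

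The comparison of surroundings asks whether lower peaks gather near the highest ones. A later row lay within 5000 bp of 40 highest-ranked peaks (10.1%, exact 95% interval 7.33% to 13.5%). Among later rows, 5048 of 36965 had another later row that close (13.7%, 13.3% to 14%). Fisher's exact test, two-sided, gave an unadjusted p = 0.0460 (odds ratio 0.712). The share was 12.6% (7.75% to 19%) for peaks of 14 to 16 tags and 4.26% (0.520% to 14.5%) for those of 30 or more, where only 2 of 47 had such a neighbour. These intervals overlap. The call was kept against peaks of 10 to 13 tags alone (10.1% against 15.7%, odds ratio 0.605, Fisher's exact p = 0.00398). With limits of 16 and 20 tags it was kept too (odds ratios 0.645 and 0.510), as with highest-ranked peaks within 1 Mb counted once (0.582). The call was lost at 1000 bp (odds ratio 0.719), 10000 bp (0.846) and 50000 bp (0.842). It was also lost without chromosome 7 (10.2% against 13.8%, odds ratio 0.710, Fisher's exact p = 0.0583). The direction turned with a limit of 12 tags (13.6% against 13.4%, odds ratio 1.02, Fisher's exact p = 0.874). Per the file headers the caller asked each peak for a 4-fold excess over the surrounding 10000 bp, a filter that acts at this distance, and its part in the result was not tested.

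In 23 of these 40 cases (57.5%) the nearest later row had 6 or 7 tags, and in 8 (20%) it had 10 to 13. Of the 5048 later rows with another that close, the nearest had 6 or 7 tags in 73.8% and 10 to 13 in 6.24%, and no test was made of these shares. Within 1000 bp there were 6 such cases. The closest was chr16:18812029-18812219 (17 tags), with a peak of 6 tags 499 bp away. Next were chr15:81494167-81494357 (16 tags), with 9 tags at 528 bp, and chr17:23810421-23810611 (27 tags), with 7 tags at 546 bp. The others were the second peak of the closest pair on chromosome 7 (11 tags at 733 bp), chr7:25055246-25055436 (7 tags at 806 bp) and chr2:30351441-30351631 (23 tags, with 10 tags at 890 bp). No other peak of any height lay within 50000 bp of 87 highest-ranked peaks (22.0%), whose median was 19 tags, and of 21.7% of the later rows.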

How the data were processed

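Per the submitters' processing notes, HOMER 4.7 and build mm9 were used. Per the file headers, the authors searched for peaks 191 bp wide against a control tag directory, with a false discovery rate of 0.001 (6 tags). No source used here names an aligner: it is not given. The score deposited by the authors is 1 in every row and was not used. The members are the first 395 rows. Tags per peak were recovered from list order: rows were read as sorted by falling count, then chromosome and position, each step back starts a lower count, and the largest group was set to 6. Some 74 peaks came out below 6. Recovery was tested on simulated data sorted that way, for counts up to 20 tags only, which does not test the order itself.

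Distances run between peak centres. Shares carry exact Clopper-Pearson 95% intervals, which cover counting error only. Shares were compared by two-sided Fisher's exact tests at 0.05, and peaks of 1 library are not independent replicates. The members, lists and tests were chosen with earlier results of these data known. The chromosome comparison and its alternatives were added after the list was seen. Named peaks are the 20 highest-ranked, those within 5000 bp of another member and those in windows of 1 Mb with 4 or more members. Other members were named after their values were seen. Planned promoter, motif, base composition and gene group results need gene positions or sequence of mm9 and were not run. Control values were not analysed here. Tools were scipy 1.17.1, pandas 2.3.3, numpy 2.4.6, matplotlib 3.10.9 and Python 3.11.15.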

Additional observations from a re-analysis of the deposited data

How the results depend on the processing

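A limit of 12 tags gave 785 peaks, 16 tags gave 280 and 20 tags gave 173, in place of those of 14 or more. The share with a later row within 5000 bp, 10.1% (odds ratio 0.712), lost its call at 1000 bp (1.52%, odds ratio 0.719, Fisher's exact p = 0.593), 10000 bp (23%, 0.846, p = 0.167), 50000 bp (74.9%, 0.842, p = 0.143) and without chromosome 7 (10.2%, 0.710, p = 0.0583). It turned with a limit of 12 tags (13.6%, 1.02, Fisher's exact p = 0.874). It kept its call against peaks of 10 to 13 tags, with peaks within 1 Mb counted once and with limits of 16 and 20 tags (Fisher's exact p from 0.00398 to 0.0355). Loci numbered 273 when joined within 1 Mb and 344 to 392 at shorter distances. Chromosomes passing the adjusted Fisher's exact test went from 2 to 1 against peaks of 10 to 13 tags and with a limit of 20 tags (3 unadjusted each), to 0 with peaks within 1 Mb counted once (1 unadjusted), and stayed at 2 or 3 in the other 3 alternatives. The causes of these changes were not tested. A higher limit or counting once also leaves smaller numbers. Alternatives on promoters, motifs and base composition were not run. No paired analysis was possible because each group holds 1 sample. The share on chromosome 14 rests on 7 peaks, and that of close neighbours among peaks of 30 or more tags on 2 of 47.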
